A study of Drosophila melanogaster with 6 samples.

Results

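The UDP-glycosyltransferase genes of Drosophila melanogaster were examined in whole larvae of the first instar, in animals labelled wild type and animals labelled mutant for Pof. The genes were taken by name: every gene whose current symbol or synonym in the annotation starts with Ugt. This gave 36 of the 11982 genes with a probe set of their own, and 35 of the 36 carry a subfamily number in their symbol. The remaining one, Uggt, meets the naming rule through an old synonym. It encodes an endoplasmic reticulum enzyme that adds glucose to misfolded glycoproteins, and it is given apart from the numbered family. The 35 genes fall under 13 subfamily numbers, each gene was read by 1 probe set, and no probe set named a member together with another gene.

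UDP-glycosyltransferases of this family are membrane enzymes of the endoplasmic reticulum that transfer a sugar from a UDP-sugar to small lipophilic molecules, which makes the products more soluble and easier to excrete. Insect enzymes mainly use UDP-glucose. They act on plant compounds, insecticides, pigments, hormones and odorants, and in flies many are expressed in the gut, Malpighian tubules, fat body and antennae. In detoxification they form the conjugating step beside the glutathione S-transferases, after oxidation by cytochromes P450. Many fly members arose by tandem duplication and lie in clusters on the chromosomes.

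Each group holds 3 Affymetrix arrays, and each array was made from 200 larvae of mixed sex and mixed tissue. The mutant group carries the allele named D119 in the series title, while no label describes the wild type stock, the parents of either group or what the mutation does. Signal is given as the log2 value of a probe set after the authors' RMA normalisation, and differences are mutant-labelled minus wild type. Pof, which encodes a protein that binds chromosome 4, served as the check of the labels. It read 6.74, 6.83 and 6.82 on the wild type arrays and 8.35, 8.44 and 8.43 on the mutant-labelled arrays, a difference of 1.61 (SE 0.07, limma adjusted p = 9.47e-05). A mutation that removes or reduces this transcript would have given the opposite direction, and whether the probe set lies in the mutated part is not known. Every direction below rests on the labels alone.

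Wild type replicate 1 stood apart from the other wild type arrays (r = 0.980 and 0.979 over all probe sets, against 0.998 between replicates 2 and 3). Its median over 88 cuticle protein genes was 9.25, against 6.81 to 6.97 on the other 5 arrays, and 315 genes lay over 1 log2 unit from the mean of wild type replicates 2 and 3. No Ugt gene was among these 315 of 11982 genes, a share so small that 0 of 35 says little. On this array Ugt35E2 lay 0.80 below and Ugt36D1 0.63 above that mean, the widest gaps of the family. On mutant-labelled replicate 2 the 3' control probe sets of actin, GAPDH and eIF-4a exceeded the 5' ones by 2.03 on average, and by 1.20 to 1.48 elsewhere. The results are therefore also given without these arrays. The labels call the replicates biological but do not say how separate the cultures were, so the p-values measure the spread between these samples.

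Of the 35 numbered Ugt genes, 9 rose and 3 fell on the mutant-labelled arrays, and 23 did not pass the test (limma, Benjamini-Hochberg adjusted p under 0.05 over all 18769 probe sets tested). The share called was 34.3%, against 4.09% of all genes. For rises alone the share was 25.7% against 2.65%, and for falls alone 8.57% against 1.44%. The median difference over the family was 0.20, against 0.02 over all genes, and the median absolute difference was 0.23 against 0.10. Differences ran from -0.97 for Ugt36E1 to 1.77 for Ugt35E2. In 22 of the 35 genes the groups did not overlap (62.9%, against 22.4% of all genes). The mutant-labelled group was the higher one in 19 of these, which held for 14.5% of all genes, and the lower one in 3, against 7.95%. An unadjusted p under 0.05 was found for 21 of the 35, against 16.8% of all genes. Of the 23 genes that did not pass, 19 had a positive and 4 a negative difference. Among all 11982 genes, 6792 differences were positive and 5190 negative.

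**Figure D1:**
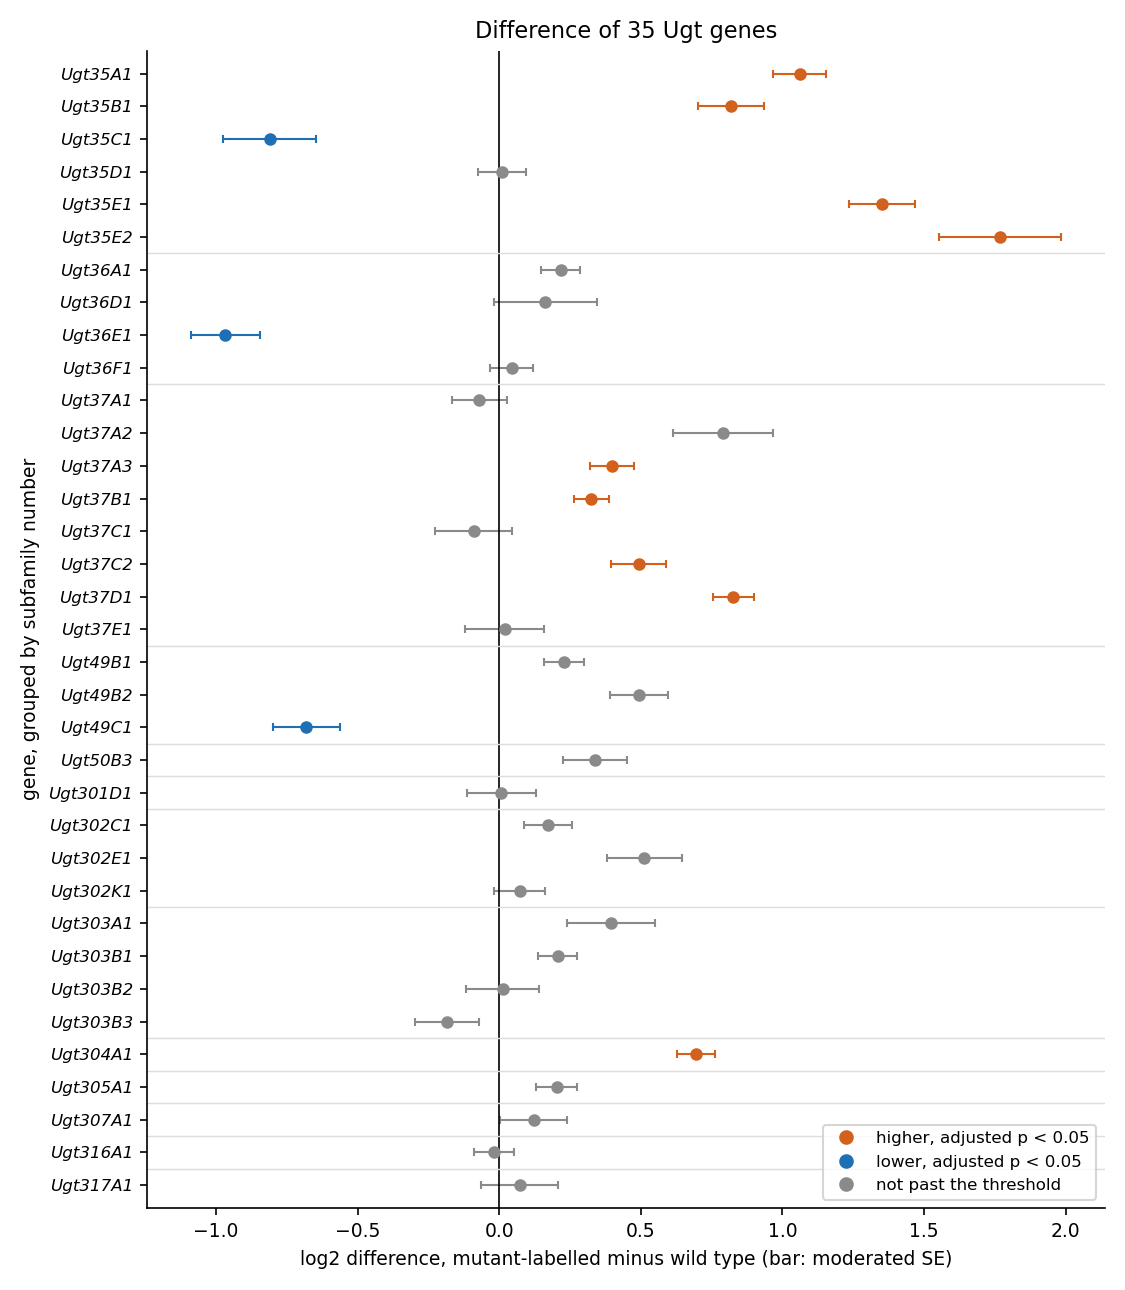
Log2 difference between mutant-labelled and wild type arrays (3 each) for the 35 numbered Ugt genes, grouped by subfamily number, with the moderated standard error as a bar. Of the 12 coloured genes that passed the test, 9 lie to the right of 0 and 3 to the left, and 5 of the 12 belong to subfamily 35.

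The Ugt35 subfamily held the largest rises. Of its 6 members, 4 rose (Ugt35A1, Ugt35B1, Ugt35E1 and Ugt35E2), 1 fell (Ugt35C1) and 1, Ugt35D1, did not pass. Their median difference was 0.94.

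Ugt35E2 (CG6653, older name Ugt86De, arm 3R) read 6.90, 7.61 and 7.80 on the wild type arrays and 9.12, 9.32 and 9.18 on the mutant-labelled arrays. The groups were separated by 1.32, and wild type replicate 1 was the lowest of the 6 arrays. The means were 7.44 ± 0.47 and 9.21 ± 0.11 (SD, n = 3), a 3.41-fold rise (log2 1.77, SE 0.22, limma adjusted p = 7.18e-03). Without wild type replicate 1 the difference was 1.50 (adjusted p = 3.73e-04). Ugt35E1 (CG17200, Ugt86Dg), which lies next to it, read 6.66, 6.43 and 6.66 against 7.72, 8.09 and 7.99. Every mutant-labelled value lay at least 1.06 above every wild type value, and the rise was 2.55-fold (log2 1.35, SE 0.12, limma adjusted p = 1.91e-03).

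Ugt35A1 (CG6644, Ugt86Df) read 9.02, 9.12 and 9.11 on the wild type arrays and 9.98, 10.29 and 10.17 on the mutant-labelled arrays. The wild type values were close together, with an SD of 0.05, and the rise was 2.09-fold (log2 1.06, SE 0.09, limma adjusted p = 1.97e-03). Ugt35B1 (CG6649, Ugt86Db), whose transcript has been described in the antenna, read 5.03, 4.77 and 4.63 against 5.51, 5.69 and 5.68. The groups did not overlap, and the difference was 0.82 (SE 0.12, limma adjusted p = 0.0126). Its wild type mean of 4.81 was under the lower quartiles of the arrays (5.11 to 5.24), where RMA compresses differences, so the size of this rise is uncertain. The call of Ugt35B1 was lost when wild type replicate 2 (adjusted p = 0.0692) or replicate 3 of the mutant-labelled group (0.0569) was left out. Ugt35D1 had means of 4.72 and 4.73 and lay below the lower quartile on all 6 arrays, as did Ugt302K1, so whether either was above background is unknown.

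**Figure D2:**
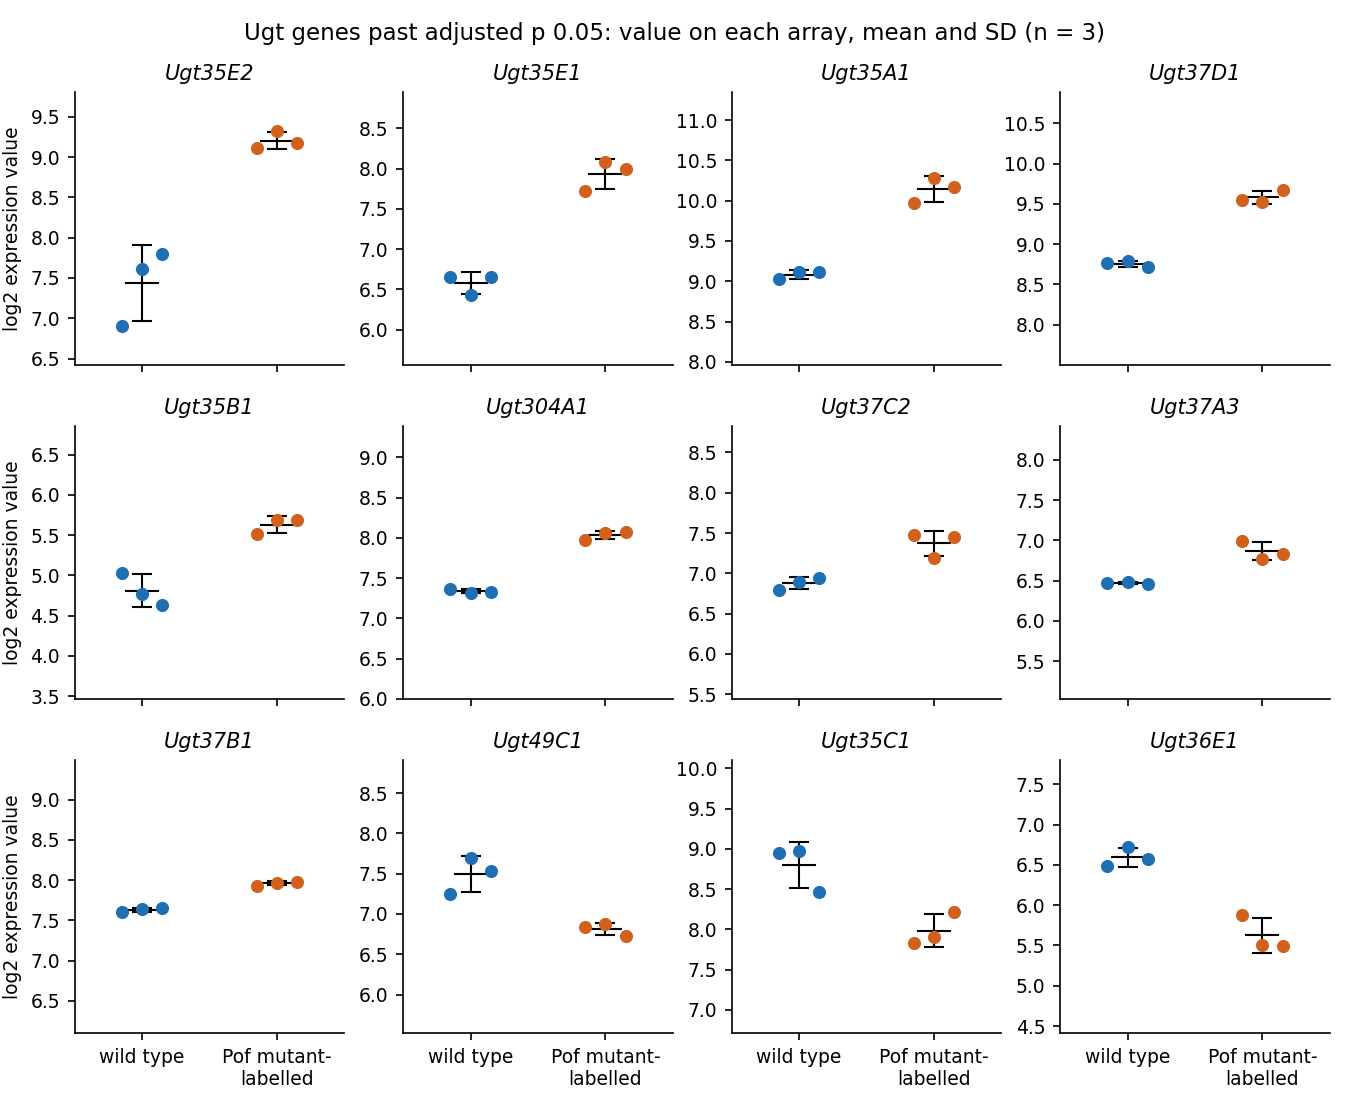
Log2 expression value on each array (points), with the group mean and SD (n = 3), for the 12 Ugt genes that passed the test, in order of their difference; each vertical axis spans the same number of log2 units. The groups do not overlap in any panel, and wild type replicate 1 (left-most point) is the lowest value of Ugt35E2.

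Ugt35E1, Ugt35E2, Ugt35B1, Ugt35A1 and Ugt304A1 are 5 successive protein-coding genes on arm 3R, and all 5 rose. They belong to a cluster of 9 Ugt genes, in which neighbouring Ugt genes lie under 20 kb apart. All 9 had a positive difference, as had 6792 of all 11982 genes. Ugt304A1 (CG15902, Ugt86Dj) read 7.36, 7.32 and 7.33 on the wild type arrays and 7.97, 8.06 and 8.07 on the mutant-labelled arrays. Both groups were tight, with SDs of 0.02 and 0.05, and the rise was 1.62-fold (log2 0.69, SE 0.07, limma adjusted p = 2.57e-03). The other 4 genes of the cluster did not pass. On one side of the 5, Ugt303A1 had a difference of 0.39 (adjusted p = 0.323). On the other side Ugt302C1, Ugt302E1 and Ugt302K1 had 0.17 (0.458), 0.51 (0.115) and 0.07 (0.828). Ugt302E1 read 6.12, 6.34 and 6.22 against 6.47, 6.97 and 6.78, so its groups did not overlap. It passed in only 3 of 14 alternative analyses.

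The genes beside this run that are not Ugt genes did not pass the test. CG4757, which lies between Ugt302C1 and Ugt35E1, had means of 4.58 and 4.55 (difference -0.02, limma adjusted p = 0.959). Both means lay under the lower quartiles of the arrays (5.11 to 5.24), so whether CG4757 was above background is unknown. CG18577, just past Ugt303A1, had a difference of -0.34 (adjusted p = 0.0864). Beyond it the genes cu and SdhC had differences of -0.17 and 0.10 (adjusted p = 0.334 and 0.720).

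**Figure D3:**
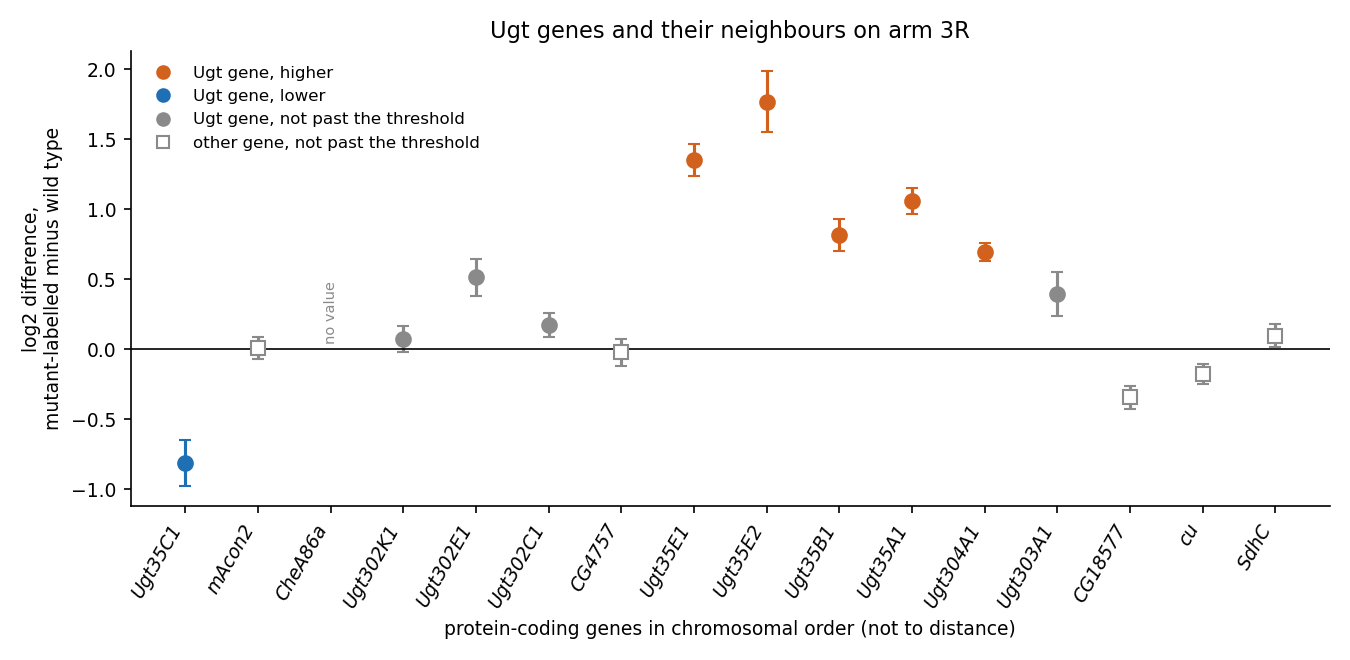
Log2 difference, mutant-labelled minus wild type, with the moderated standard error, for the Ugt genes of one stretch of arm 3R (filled circles) and other protein-coding genes between and beside them (open squares), in chromosomal order and not to distance. The 5 successive genes from Ugt35E1 to Ugt304A1 lie between 0.69 and 1.77, and Ugt35C1 at the left end lies at -0.81.

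Ugt35C1 (CG6633, Ugt86Dd) lies near the same cluster, with mAcon2 and CheA86a between, and moved the other way. This gene has been linked to nicotine resistance in larvae. It read 8.94, 8.98 and 8.47 on the wild type arrays and 7.84, 7.90 and 8.22 on the mutant-labelled arrays. Wild type replicate 3 was the lowest of its group and mutant-labelled replicate 3 the highest of its own, and these values still did not overlap. The fall was 1.75-fold (log2 -0.81, SE 0.16, limma adjusted p = 0.0470). With single arrays left out it passed only without wild type replicate 3 (adjusted p = 0.0303) and gave 0.0641 to 0.186 otherwise. Its measured neighbours SdhCL and mAcon2 had differences of -0.06 and 0.01.

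The Ugt37 subfamily is the largest, with 8 members on 3 chromosome arms. Of these, 4 rose, 0 fell and 4 did not pass, and the median difference was 0.36. Ugt37D1 (CG17932, Ugt36Bc, arm 2L) read 8.77, 8.79 and 8.71 against 9.55, 9.53 and 9.68. The groups were separated by 0.74, and the rise was 1.77-fold (log2 0.83, SE 0.07, limma adjusted p = 1.91e-03). Its probe set has the suffix _s, which marks a set that can match several transcripts. Ugt37C2 (CG13270, Ugt36Ba) lies in the same cluster of 3 and read 6.79, 6.90 and 6.95 against 7.47, 7.19 and 7.45. Mutant-labelled replicate 2 was the lowest of its group, the groups did not overlap, and the difference was 0.49 (SE 0.10, limma adjusted p = 0.0446). Ugt37E1, which lies between them, had a difference of 0.02, with both means under the lower quartile of each array.

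Ugt37B1 (CG9481, arm 2L) showed a small rise. It read 7.61, 7.64 and 7.66 on the wild type arrays and 7.93, 7.97 and 7.98 on the mutant-labelled arrays, with an SD of 0.02 in either group. The rise was 1.25-fold, the smallest of those called (log2 0.33, SE 0.06, limma adjusted p = 0.0405). Ugt37A3 (CG5999, arm 3R) read 6.48, 6.48 and 6.45 against 6.99, 6.77 and 6.84. The wild type values hardly varied (SD 0.01), and the difference was 0.40 (SE 0.08, limma adjusted p = 0.0436). Its neighbour Ugt37A2 read 6.55, 7.08 and 6.92 against 7.43, 7.53 and 7.95. Here the difference was 0.79, about as large as that of Ugt37D1, but its SE was 0.18 and it did not pass (adjusted p = 0.0696). Ugt37A1 and Ugt37C1 had differences of -0.07 and -0.09, and their groups overlapped.

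The calls of the smaller Ugt37 rises depended on single arrays. Ugt37B1 and Ugt37A3 lost theirs when any one of the 6 arrays was left out (adjusted p 0.0783 to 0.181 and 0.0580 to 0.175). Ugt37C2 kept its call only without mutant-labelled replicate 2 (0.0247) and gave 0.0771 to 0.167 without any other array. Their differences moved little, between 0.31 and 0.34 for Ugt37B1, 0.34 and 0.45 for Ugt37A3, and 0.44 and 0.58 for Ugt37C2.

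Among the 4 Ugt36 genes, 0 rose and 1 fell. Ugt36E1 (CG17322, arm 2L), which has been linked to pheromone sensing in males, read 6.48, 6.72 and 6.58 on the wild type arrays and 5.87, 5.51 and 5.49 on the mutant-labelled arrays. The groups were separated by 0.61, and the fall was 1.95-fold (log2 -0.97, SE 0.12, limma adjusted p = 7.97e-03), the largest of the family. This probe set also has the suffix _s. Its neighbours in a cluster of 3, Ugt36D1 and Ugt36F1, had differences of 0.16 and 0.04 (adjusted p = 0.803 and 0.886). The wild type mean of Ugt36F1 was just under the lower quartile of each array. Ugt36D1 read 10.16 on wild type replicate 1, against 9.49 and 9.56 on replicates 2 and 3. Without replicate 1 its difference was 0.37 (adjusted p = 0.129). Ugt36A1, also called Dot and used as a source of driver lines for pericardial cells, had means of 7.16 and 7.38 (difference 0.22, adjusted p = 0.194), and its groups did not overlap.

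Of the 3 Ugt49 genes, 0 rose and 1 fell. Ugt49C1 (CG15661, arm 2R) read 7.25, 7.70 and 7.54 against 6.84, 6.88 and 6.73. Wild type replicate 1 was the lowest wild type value and still lay above all mutant-labelled values, and the gene fell by 0.68 on the log2 scale (SE 0.12, limma adjusted p = 0.0294). With single arrays left out it passed only without wild type replicate 1 (log2 -0.80, adjusted p = 4.09e-03) and gave 0.0739 to 0.128 otherwise. The adjacent Ugt49B1 had a positive difference of 0.23 (adjusted p = 0.193), and Ugt49B2, on arm 3R, had 0.49 (0.0552). The groups of both did not overlap.

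Outside subfamilies 35, 36, 37 and 49, Ugt304A1 was the only gene that passed the test. In the cluster of 3 Ugt303B genes on arm 3R, Ugt303B1, Ugt303B2 and Ugt303B3 had differences of 0.21, 0.01 and -0.18. Ugt50B3 had 0.34 (adjusted p = 0.228) and Ugt305A1 had 0.20 (0.274), with groups that did not overlap. Ugt301D1, Ugt307A1, Ugt316A1 and Ugt317A1 had differences between -0.02 and 0.12, and their groups overlapped. Uggt read 7.56, 7.37 and 7.47 against 7.51, 8.08 and 7.72, a difference of 0.30 (SE 0.14, adjusted p = 0.428).

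The 35 genes fall into 6 clusters holding 22 genes and 13 genes that lie alone. Of the 22 clustered genes 8 rose and 2 fell (45.5% called), and of the 13 lone genes 1 rose and 1 fell (15.4%). The cluster of 9 on arm 3R held 5 of the 8 clustered rises. In 5 of the 6 clusters, called and uncalled genes lay together, as with Ugt37C2, Ugt37E1 and Ugt37D1, and the remaining cluster, of Ugt303B genes, held no call. The nearest measured genes on either side of the 12 called members that are not Ugt genes were 14 in all. Of these, 0 rose and 1 fell, where 4.09% of all genes were called. The 1 was smal, beside Ugt37B1, with a difference of -0.82 (limma adjusted p = 0.0204). The other 13 had differences between -0.34 and 0.13. CG4757 and CG13280 among them were dim, with both means under the lower quartile of each array. Not all 14 were adjacent: 7 protein-coding genes lie between ham and Ugt36E1. Past the nearest measured genes, some others that are not Ugt genes also passed. Past CG13280, which lies beside Ugt37D1, mdy rose (0.57, limma adjusted p = 0.0133). Past Gyg, which lies beside Ugt49B1, Lapsyn fell (-1.62, limma adjusted p = 1.62e-03).

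Genes of the surrounding pathway were read from lists, beside 4.09% called among all genes. Of 7 measured genes that make or use UDP-sugars or their precursors, 1 rose and 1 fell (28.6% called). Galt, which encodes galactose-1-phosphate uridylyltransferase, read 8.11, 8.16 and 8.36 on the wild type arrays and 9.89, 9.86 and 9.82 on the mutant-labelled arrays (difference 1.64, SE 0.08, limma adjusted p = 2.63e-04). UGP, which makes UDP-glucose, had a difference of -0.46 (adjusted p = 0.0182), with a mutant-labelled mean of 4.70 below every lower quartile. The UDP-glucose dehydrogenase gene sgl had 0.57 (0.0552). Of 11 factors of the response to foreign compounds, among them Hr96, cnc and Keap1, 0 passed limma's adjusted test, and so did 0 of 6 efflux transporter genes. At an unadjusted p under 0.05 each of these lists had 1 higher and 0 lower, beside 16.8% of all genes in either direction. Of 4 sulfotransferase genes, which conjugate by another route, 0 rose and 1 fell (25% called). This was St4, which fell by 0.92 (adjusted p = 1.83e-03).

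The enzyme families of the other detoxification steps had called shares of 25.3% (cytochrome P450 genes, 14 of 83 higher and 7 lower) and 29.4% (glutathione S-transferase genes, 8 of 34 higher and 2 lower). Among all genes 4.09% were called, 2.65% higher and 1.44% lower. Median differences of the 2 families were 0.09 and 0.24, beside 0.20 for the Ugt genes and 0.02 over all genes. Differences of the cytochrome P450 genes ran from -4.18 (Cyp12d1-d) to 5.92 (Cyp6a17). The size of both is uncertain, since the mutant-labelled mean of Cyp12d1-d (4.35) and the wild type mean of Cyp6a17 (5.07) lay below every lower quartile.

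Markers of larval tissues were read on the same arrays. Of 12 midgut genes, 5 rose and 2 fell (58.3% called, against 4.09% of all genes). Their median level was 11.99 to 12.41 on the wild type arrays and 12.51 to 12.94 on the mutant-labelled arrays. Of 8 Malpighian tubule, 7 fat body and 6 olfactory genes, 0 passed limma's adjusted test. By the unadjusted p, 0 tubule genes, 2 fat body genes (both higher) and 1 olfactory gene (lower) were under 0.05. Among all genes 16.8% were. Tubule medians were 8.53 to 8.57 and 8.30 to 8.68, fat body medians 9.46 to 9.65 and 9.53 to 9.81, and olfactory medians 6.09 to 6.24 and 6.08 to 6.21. Of the 88 cuticle protein genes, 0 rose and 1 fell (TwdlN, -0.47, limma adjusted p = 0.0393). By the unadjusted p 9 were under 0.05, all lower. Differences were negative for 72 of the 88 and positive for 16, with wild type replicate 1 high over this list. Among all 11982 genes 5190 were negative. All these values came from whole larvae, in which fewer cells of a type and less RNA per cell cannot be told apart. The part of the midgut markers in the Ugt differences was not tested.

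Across the 12 called genes, 6 passed in all of the alternative analyses that tested them: Ugt35E2, Ugt35E1, Ugt35A1, Ugt304A1 and Ugt37D1 among the rises, and Ugt36E1 among the falls. No called gene changed sign in any of them. With single arrays left out, 6 to 8 Ugt genes were called, 5 to 7 higher and 1 to 2 lower, while the share of all genes called was 1.69% to 4.47%. The lowest count, 6, was found without replicate 2 of the wild type and again without replicate 3 of the mutant-labelled group. Without wild type replicate 1 it was 8, without mutant-labelled replicate 2 it was also 8, and without both of these arrays 11.

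**Figure D4:**
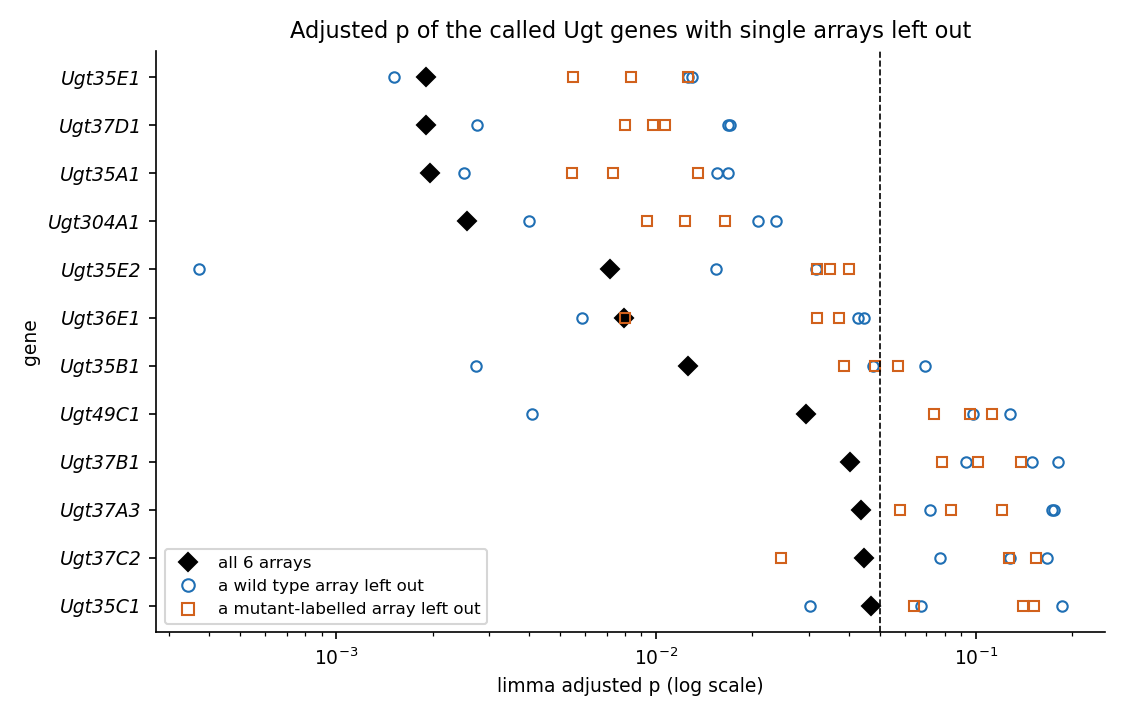
Limma adjusted p (log scale) of the 12 called Ugt genes with all 6 arrays (diamonds) and with each array left out in turn (circles, a wild type array left out; squares, a mutant-labelled array left out); the dashed line marks 0.05. For the 6 genes at the top every symbol stays left of the line, and for Ugt37B1 and Ugt37A3 every open symbol lies to its right.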

How the data were processed

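Total RNA of whole larvae was extracted with TRIzol and RNeasy columns and hybridised to Affymetrix arrays, per the labels' protocols. The deposited table holds 1 log2 value for each probe set and array. The submitters' processing notes name RMA as the authors' method, without a version or settings. It usually quantile-normalises arrays, which removes a shift shared by most genes and compresses differences of dim probe sets. Array medians were 6.46 to 6.56. There were no detection calls, and precision is limited by the number of arrays.

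Of 18952 probe sets, 183 controls were left out. Names came from the platform annotation (13647 probe sets with 1 gene symbol, 402 with several, 4720 with none), updated by gene ID through a RefSeq table (assembly Release 6 plus ISO1 MT) (13544 matched), which was used only for names, arms, gene order and clusters. The brightest single-gene probe set stood for a gene. A model with group as its only term was fitted to all 18769 probe sets (limma 3.58.1 in R 4.3.3, lmFit then eBayes), with Benjamini-Hochberg adjustment. An adjusted p under 0.05 is a call, SE is moderated, and ± gives the SD. The procedure was tested on simulated data. Every Ugt gene is named, called ones with all 6 values, with the nearest measured gene on each side that is not a Ugt gene. The members and lists were chosen with earlier results of these data known. Alternatives were a filter to the brightest 60% of probe sets, cyclic loess, trended and robust eBayes, array weights, a replicate block, arrays left out, the mean over probe sets, dropping those with suffix _s, _x or _a, and an adjusted p under 0.10.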

Additional observations from a re-analysis of the deposited data

How the results depend on the processing

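No Ugt gene reversed a called difference under any of 14 alternative analyses, and 431 of 480 single-gene results stayed on the same side of the threshold, while 38 lost and 11 gained a call. With all 6 arrays, alternatives to the 12 calls gave 10 to 14. The 14 came from loosening the threshold to an adjusted p under 0.10, which is apart from the 14 analyses above. The share of all genes called moved too, to 3.97% with the replicate block (10 Ugt genes) and 7.01% with array weights (13 Ugt genes). With one array left out, the total was 6 to 8, the rises 5 to 7 and the falls 1 to 2; fewer arrays were then fitted. Dropping sets of suffix _s, _x or _a removed 3 members, among them the called Ugt37D1 and Ugt36E1, and left 10 calls. The filter on dim probe sets left 28 members and 12 calls, where 5.49% of the genes kept were called. Of these calls 11 were among the reported 12. The filter removed the called Ugt35B1, and Ugt49B2 gained a call (limma adjusted p = 0.0489). Ugt302E1, Ugt37A2 and Ugt49B2 were called in 3, 4 and 4 of the alternatives and not in the analysis reported. Whether replicate numbers pair the samples was not settled. Deviations of same-numbered arrays correlated with r = 0.18, 0.13 and 0.03, and those of differently numbered arrays with r from -0.19 to 0.15. Wild type replicate 3 correlated best with mutant-labelled replicate 2 (r = 0.15). With the replicate block 10 genes were called, 8 higher and 2 lower, but only 8 of the 12 reported calls were kept. Ugt37B1, Ugt37A3, Ugt37C2 and Ugt35C1 lost theirs, and Ugt302E1 and Ugt37A2 gained one. Dim probe sets came without detection calls, which limits statements on Ugt35D1, Ugt302K1, Ugt37E1, Ugt36F1 and Ugt35B1, and on the neighbours CG4757 and CG13280.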
